A study of Danio rerio with 16 samples.

Results

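The pregnane X receptor (PXR, symbol NR1I2) and the cytochrome P450 genes of families 2 and 3 were followed in whole zebrafish larvae exposed to the polychlorinated biphenyl PCB153. Members were taken by name. The rule was every gene whose symbol starts with cyp2 and a letter, or with cyp3, plus NR1I2, with at least 10 counts summed over the 16 libraries, and CYP2R1 was left out. It gave 46 of the 32105 genes in the files. They were 39 genes of family 2, 5 of family 3, NR1I2, and cyp39a1, a gene of another P450 family that the letters of the rule also catch. After the filter on low counts 42 members could be tested. The 4 that could not were cyp2k22, cyp2k31, cyp2x6 and cyp2x10.1, with 14, 65, 39 and 10 counts over all 16 libraries.

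PXR is a nuclear receptor that binds foreign compounds and bile acids. Paired with a retinoid X receptor (RXR), it switches on genes for the uptake, oxidation and export of such compounds, in mammals mainly in liver and intestine. P450 enzymes of families 2 and 3 are haem proteins that oxidise drugs, pollutants, steroids and fatty acids with electrons from P450 oxidoreductase (POR). Zebrafish carry many family 2 genes in tandem arrays, and subfamilies such as cyp2k, cyp2aa, cyp2x and cyp3c are known from fish and not from mammals.

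Total RNA from whole animals aged 5 days was sequenced with a strand-specific, ribosome-depleted protocol, in 4 libraries for each of 4 groups. The control group received the solvent DMSO at 0.1%, and the treated groups received PCB153 at 0.1, 1 or 10 µM; all were exposed from 4 to 120 hours after fertilisation. PCB153 is a persistent biphenyl of the kind that binds the aryl hydrocarbon receptor poorly. The labels give no DMSO percentage for the treated groups. They name no strain and no number of larvae per library, and they do not say whether the libraries of a group came from separate clutches. The tests thus set differences against the spread between these libraries, and whether that covers the spread between clutches is not known.

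Gene counts came to between 8069225 and 15531744 per library, and 12542 to 23931 of them fell on P450 members. Reads not uniquely aligned, which are not counted for any gene, were 26.9% to 33.5% of a DMSO library, 28.1% to 57.7% at 0.1 µM, 31.3% to 40.7% at 1 µM and 36.6% to 41.5% at 10 µM. Values of near-identical paralogs are uncertain for that reason. Every 10 µM library was above every DMSO library in this share, and it was not used as a covariate in any fit. Of the uniquely aligned reads, a share matched no annotated gene feature on the counted strand. It was 31.4% to 35.5% in DMSO, 36.2% to 38.6% at 0.1 µM, 35.1% to 40.4% at 1 µM and 31.7% to 33.3% at 10 µM. These reads are called reads outside genes below, though some can lie within genes, for example on the opposite strand. This share stood apart at 0.1 µM from DMSO and from 10 µM, and at 1 µM from 10 µM. For members and for the genes of the partner, supply and transporter lists, the calls described that this share ends when used as a covariate are given beside them. Calls of the tissue markers were not checked in this way. In 3 libraries, chosen after seeing the data, something stood apart: 0.1 µM replicate 2 on the third principal component, 0.1 µM replicate 3 by its reads not uniquely aligned, and 1 µM replicate 1 by its low depth. On that component 0.1 µM replicate 2 was at 22.0, while 1 µM replicate 1 was further out at -28.1 and 1 µM replicate 3 was at 18.3. The check for outlying libraries given further below flagged no value of the reads not uniquely aligned. Calls described that end without these 3 libraries are given both ways, again without a check of the tissue markers. Tissue markers were detected in every library for liver, intestine, kidney tubule, exocrine pancreas and skeletal muscle, with the exception of the liver list's hp, which had 4 counts in all. In whole larvae, fewer cells of a tissue and less RNA per cell cannot be told apart.

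The 6 comparisons ask which members differ from the control at each dose, and which differ between doses. At 0.1 µM 1 member rose and none fell, which is 2.38% of the 42 tested, where 3.43% of all 21372 genes were called, 2.3% upwards and 1.14% downwards (edgeR quasi-likelihood test, Benjamini-Hochberg adjusted p under 0.05). At 1 µM 5 rose and 2 fell, or 16.7% against 12.4% of all genes (7.13% up, 5.27% down). At 10 µM 7 rose and 5 fell, or 28.6% against 18.3% of all genes (9.9% up, 8.45% down). Among those that fell, cyp2aa9 had no library above the low-count filter's threshold of 0.735 CPM at 1 or 10 µM, and cyp2x10.2 none at 10 µM. These genes passed the filter only through groups where they were higher, so their falls are given as descriptions. At 10 µM 6 members and 2580 of all genes were called without 10 µM replicate 2, and 7 members and 2871 genes without DMSO replicate 3. The shares at 0.1 and 1 µM are near those of all genes and are not read as a result about these genes, and the difference at 10 µM was not tested. Over the 3 comparisons 13 members were called at least once, where 24.4% of all genes were. The median log2 fold change of the members was 0.04, 0.02 and -0.08 at the rising doses, beside 0.0014, -0.0064 and -0.0076 for all genes. The members thus moved in both directions. The 3 comparisons share their DMSO libraries.

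**Figure D1:**
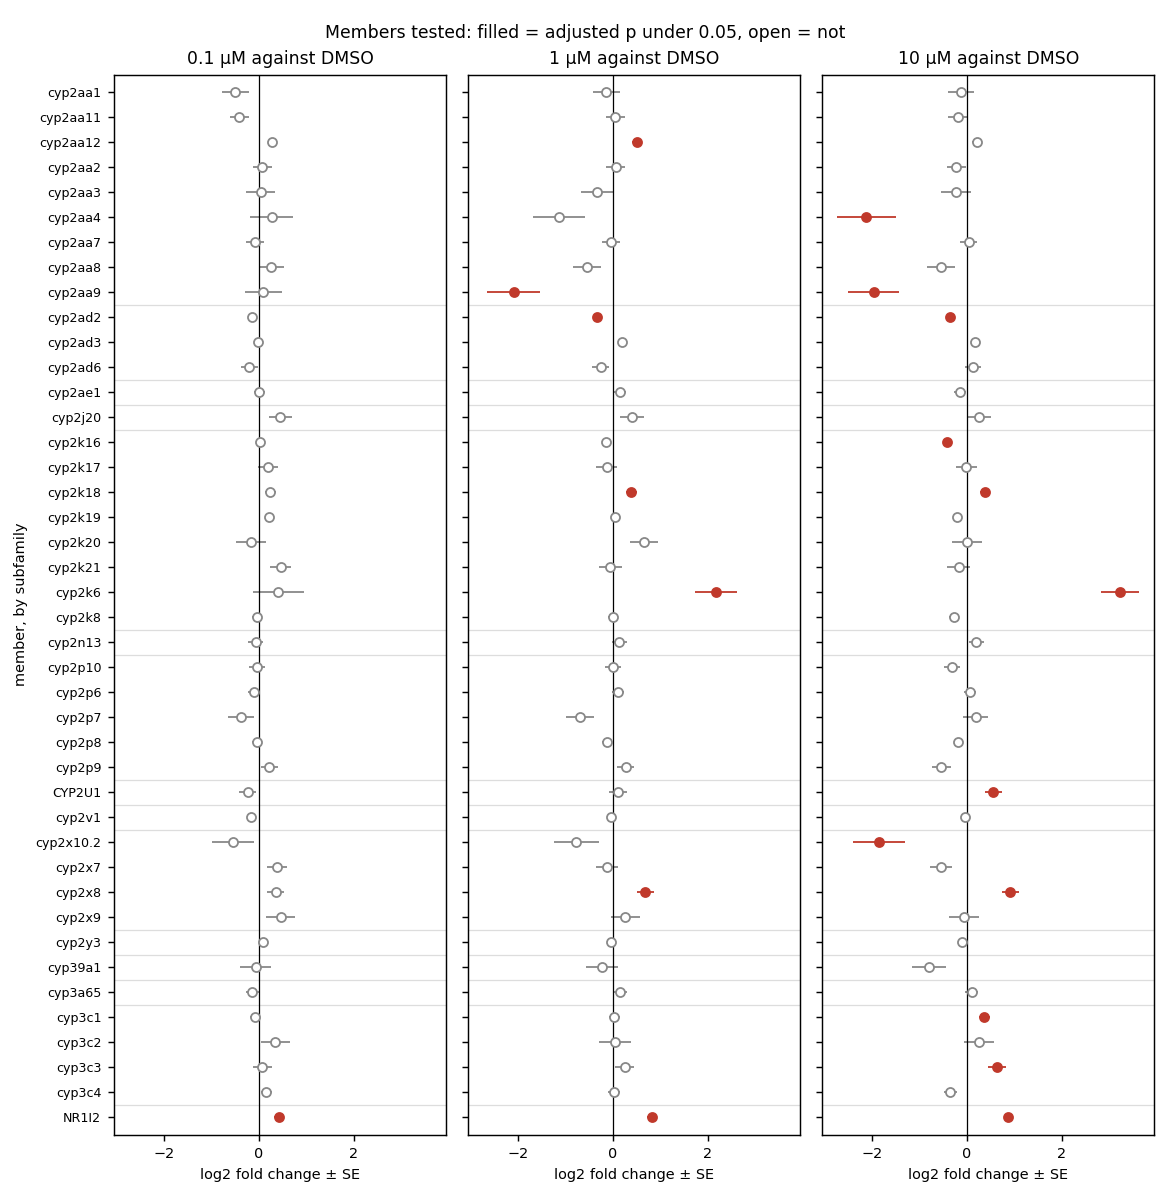
Log2 fold change against DMSO ± SE (horizontal axis) of the 42 members tested (vertical axis, ordered by subfamily) at 0.1, 1 and 10 µM PCB153, from left to right. Filled red points passed an adjusted p of 0.05 and open points did not: NR1I2 alone at 0.1 µM, 7 members at 1 µM and 12 at 10 µM, with cyp2k6 at 3.23 the highest.

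The receptor itself rose at every dose. NR1I2 (ENSDARG00000029766) stood at 27.1, 25.8, 29.0 and 36.7 CPM (counts scaled to 1e+06 per library) in DMSO replicates 1 to 4 and at 41.1, 38.2, 39.4 and 40.0 CPM at 0.1 µM. It stood at 56.3, 48.2, 56.2 and 48.8 CPM at 1 µM and at 53.8, 57.1, 57.9 and 47.6 CPM at 10 µM. Every treated library was above every DMSO library, DMSO replicate 4 was the highest control, and the libraries of 1 and 10 µM lay above those of 0.1 µM and overlapped each other. The log2 fold change against DMSO was 0.42 ± 0.09 at 0.1 µM (SE, n = 4; edgeR adjusted p = 0.011), 0.81 ± 0.09 at 1 µM (3.06e-06) and 0.86 ± 0.09 at 10 µM (1.03e-06). The calls at 1 and 10 µM held in every alternative run. The call at 0.1 µM ended with reads outside genes as a covariate (0.30 ± 0.12, edgeR adjusted p = 0.293) and without the 3 libraries that stood apart (0.45 ± 0.12, adjusted p = 0.0544).

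Between doses, NR1I2 was 0.45 ± 0.09 log2 units higher at 10 than at 0.1 µM (edgeR adjusted p = 0.00146), and this held in every alternative. It was 0.40 ± 0.09 higher at 1 than at 0.1 µM (adjusted p = 0.038), a call that ended in a fit of those 8 libraries alone (0.0608), with the replicate block (0.0547) and without the 3 libraries that stood apart (0.369). It also ended without any 1 of 7 libraries, namely DMSO replicate 3, 0.1 µM replicates 2 and 3, 1 µM replicates 1, 3 and 4 and 10 µM replicate 1, with adjusted p up to 0.118. Between 1 and 10 µM the difference was 0.05, with a 95% interval from -0.13 to 0.23.

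PXR works with RXR, with co-activators and co-repressors, and beside other receptors of the liver and gut. Of 21 such genes tested, 2 fell at 0.1 µM, 5 rose at 1 µM and 4 rose at 10 µM, which is 9.52%, 23.8% and 19% where 3.43%, 12.4% and 18.3% of all genes were called. The share at 10 µM is near that of all genes. VDR (ENSDARG00000070721), the vitamin D receptor, which in mammals can act on some of the same P450 genes, rose by 0.27 ± 0.08 log2 units at 1 µM (edgeR adjusted p = 0.0259) and by 0.43 ± 0.08 at 10 µM (0.000511). A second gene annotated as VDR (ENSDARG00000099483) was also tested, and its values are not given here. At 0.1 µM rxrgb, the only RXR gene called at that dose, fell by 0.44 on the log2 scale (SE 0.12, edgeR adjusted p = 0.0447). HNF4A, a liver and gut factor that in mammals is needed for PXR expression, fell there by 0.26 (SE 0.06, 0.0283). Neither of these last genes was called at 1 or 10 µM against DMSO, and both were higher at 10 than at 0.1 µM, by 0.49 ± 0.12 (0.00762) and 0.26 ± 0.07 (0.00721). With the covariate and without the 3 libraries that stood apart, the calls of both genes ended at 0.1 µM against DMSO (adjusted p of 0.174 to 0.452) and between these doses (0.0705 to 0.378). Of the 16 libraries, the rxrgb call at 0.1 µM ended without any 1 of 11 (up to 0.123) and held without 0.1 µM replicate 4, 1 µM replicate 1 or 3, or 10 µM replicate 1 or 3; it also ended with the replicate block (0.0607). The HNF4A call at 0.1 µM ended when only its own 8 libraries were fitted (0.093), and also without any 1 of DMSO replicates 1, 2 and 3 and 0.1 µM replicates 2 and 3 (up to 0.104). VDR at 1 µM was lost without any 1 of DMSO replicates 2, 3 and 4 and 1 µM replicates 1, 3 and 4 (up to 0.0863).

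The family 3 genes were led in reads by cyp3a65 (ENSDARG00000103295), the zebrafish gene of subfamily 3A in this set, the subfamily that in mammals is the best known PXR target. It was at 769, 627, 585 and 577 CPM in DMSO and at 622, 431, 536 and 740 CPM at 0.1 µM. It was at 699, 608, 783 and 753 CPM at 1 µM and at 707, 707, 640 and 692 CPM at 10 µM. The 4 groups overlapped, with DMSO replicate 1 above most treated libraries and 0.1 µM replicate 2 the lowest of all. The log2 fold change was -0.13 (95% interval -0.43 to 0.16) at 0.1 µM, 0.15 (-0.14 to 0.45) at 1 µM and 0.10 (-0.19 to 0.40) at 10 µM, with edgeR adjusted p of 0.686, 0.533 and 0.666. No change was called, and the intervals allow a rise of up to 0.45 log2 units at 1 µM. The small negative value at 0.1 µM turned positive with the covariate (0.11) and without the 3 libraries that stood apart (0.093), again with no call. The gene took 35.8% to 49.5% of the reads of all P450 members, a share not corrected for length. The summed CPM of the P450 members was 1373 to 1579 in DMSO, 1206 to 1547 at 0.1 µM, 1412 to 1589 at 1 µM and 1432 to 1547 at 10 µM, so the groups overlapped.

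Of the 4 cyp3c genes, 2 rose at 10 µM and none was called at 0.1 or 1 µM. At 10 µM this is 50% of the 4, where 18.3% of all genes were called, a difference that was not tested. The gene cyp3c1 (ENSDARG00000015575) was at 54.5, 52.5, 55.7 and 55.0 CPM in DMSO and at 57.3, 43.6, 46.6 and 58.0 CPM at 0.1 µM. It was at 67.0, 44.6, 55.5 and 56.6 CPM at 1 µM and at 67.4, 80.3, 62.1 and 70.5 CPM at 10 µM. All 10 µM libraries were above all DMSO and 0.1 µM libraries, while 1 µM spanned the control values. The rise over DMSO was 0.36 ± 0.11 (edgeR adjusted p = 0.0303) and that over 0.1 µM was 0.45 ± 0.11 (0.00942). The call against DMSO ended with the covariate (0.0569) and without any 1 of 7 libraries, namely each DMSO library and 10 µM replicates 1, 2 and 4, with adjusted p up to 0.0995. That against 0.1 µM ended with the covariate (0.345) and without the 3 libraries that stood apart (0.063).

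The gene cyp3c3 (ENSDARG00000037873) was at 24.2, 20.5, 18.7 and 17.1 CPM in DMSO and at 21.9, 20.1, 21.5 and 21.3 CPM at 0.1 µM. It was at 36.5, 19.7, 22.1 and 19.7 CPM at 1 µM and at 33.8, 36.2, 21.1 and 33.3 CPM at 10 µM. At 10 µM 3 libraries were above all controls and replicate 3 was not; at 1 µM only replicate 1, the library of lowest depth, was high. The rise at 10 µM was 0.63 ± 0.20 (edgeR adjusted p = 0.0389). It ended with the covariate (0.066) and without any 1 of 9 libraries, namely DMSO replicates 2, 3 and 4, 0.1 µM replicates 1, 3 and 4, and 10 µM replicates 1, 2 and 4, with adjusted p up to 0.111. The gene cyp3c4 went the other way. It ranged from 11.1 to 11.8 CPM in DMSO, 10.4 to 15.05 at 0.1 µM, 9.32 to 14.2 at 1 µM and 8.40 to 9.96 at 10 µM, and was 0.51 log2 units lower at 10 than at 0.1 µM (-0.51 ± 0.13, edgeR adjusted p = 0.00699; 0.524 with the covariate). Against DMSO its difference at 10 µM was -0.35 (adjusted p = 0.0614), with no overlap of the groups. The weakly counted cyp3c2 was not called.

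The largest rise of any member belonged to cyp2k6 (ENSDARG00000098995), a fish P450 whose zebrafish enzyme is known to oxidise aflatoxin. It was at 0.651, 1.23, 0.333 and 1.47 CPM in DMSO and at 1.59, 0.737, 1.30 and 1.36 CPM at 0.1 µM. It was at 7.48, 2.26, 3.91 and 4.11 CPM at 1 µM and at 10.6, 9.40, 10.4 and 4.83 CPM at 10 µM. DMSO and 0.1 µM overlapped, and every library at 1 and 10 µM was above both. Behind these values stand 5 to 23 counts per DMSO library and 63 to 159 per library at 10 µM. The fold change was 4.52 at 1 µM (log2 2.18 ± 0.45, edgeR adjusted p = 0.00505) and 9.40 at 10 µM (log2 3.23 ± 0.40, 6.97e-05). At 0.1 µM the log2 difference was 0.41 (95% interval -0.74 to 1.56).

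The call at 10 µM held in every alternative, with adjusted p no higher than 0.00071. The call at 1 µM ended with the covariate (2.104 ± 0.61, edgeR adjusted p = 0.0677) and held without each single library. Between doses cyp2k6 was 7.08-fold higher at 10 than at 0.1 µM (log2 2.82 ± 0.38, adjusted p = 0.00024), which held in every alternative. The steps from 0.1 to 1 µM (1.77 ± 0.43, adjusted p = 0.0628) and from 1 to 10 µM (1.06 ± 0.33, 0.071) were not called. It varied more among replicates than most members: its biological coefficient of variation was 0.354, beside a median of 0.134 over the members tested and 0.0784 over all genes tested.

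Other cyp2k genes moved by far less and in both directions. Of the 8 cyp2k genes tested, cyp2k6 included, 2 rose at 1 µM, namely cyp2k6 and cyp2k18. At 10 µM the same 2 rose and 1 fell, cyp2k16. These are 25% and 37.5%, where 12.4% and 18.3% of all genes were called, and the differences were not tested. The gene cyp2k18 (ENSDARG00000104593) was at 15.7, 15.5, 15.5 and 15.6 CPM in DMSO and at 19.3, 17.3, 19.8 and 17.6 CPM at 0.1 µM. It was at 23.8, 20.1, 15.5 and 22.8 CPM at 1 µM and at 16.9, 23.8, 19.7 and 21.0 CPM at 10 µM. Its control libraries were nearly alike, 1 µM replicate 3 lay at their level, and all 0.1 and 10 µM libraries lay above. At 0.1 µM the difference was 0.24 ± 0.11, with no call (edgeR adjusted p = 0.25). The rise was 0.39 ± 0.11 at 1 µM (edgeR adjusted p = 0.0224) and 0.38 ± 0.11 at 10 µM (0.0191). The call at 1 µM ended with the covariate (0.304), without the 3 libraries that stood apart (0.071) and without any 1 of DMSO replicates 2 and 3 and 1 µM replicates 1 and 4, with adjusted p up to 0.091. The call at 10 µM ended without 10 µM replicate 2 (adjusted p = 0.0912).

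The gene cyp2k16 (ENSDARG00000102981) fell at 10 µM. It was at 17.5, 18.3, 16.3 and 19.0 CPM in DMSO and at 17.5, 18.6, 19.9 and 16.6 CPM at 0.1 µM. It was at 15.2, 17.2, 15.7 and 15.6 CPM at 1 µM and at 12.7, 13.8, 14.1 and 12.9 CPM at 10 µM. All 4 libraries at 10 µM were below every other library. Its log2 difference was -0.41 ± 0.08 against DMSO (edgeR adjusted p = 0.000985), which held in every alternative, and -0.45 ± 0.08 against 0.1 µM (0.000633; 0.154 with the covariate). The gene cyp2k19 was 0.42 log2 units lower at 10 than at 0.1 µM (-0.42 ± 0.09, adjusted p = 0.00143; 0.269 with the covariate), from 29.2 to 36.1 CPM down to 22.2 to 25.8 CPM, and was not called against DMSO (-0.21, 0.0985). The other 4 cyp2k genes tested were not called.

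**Figure D2:**
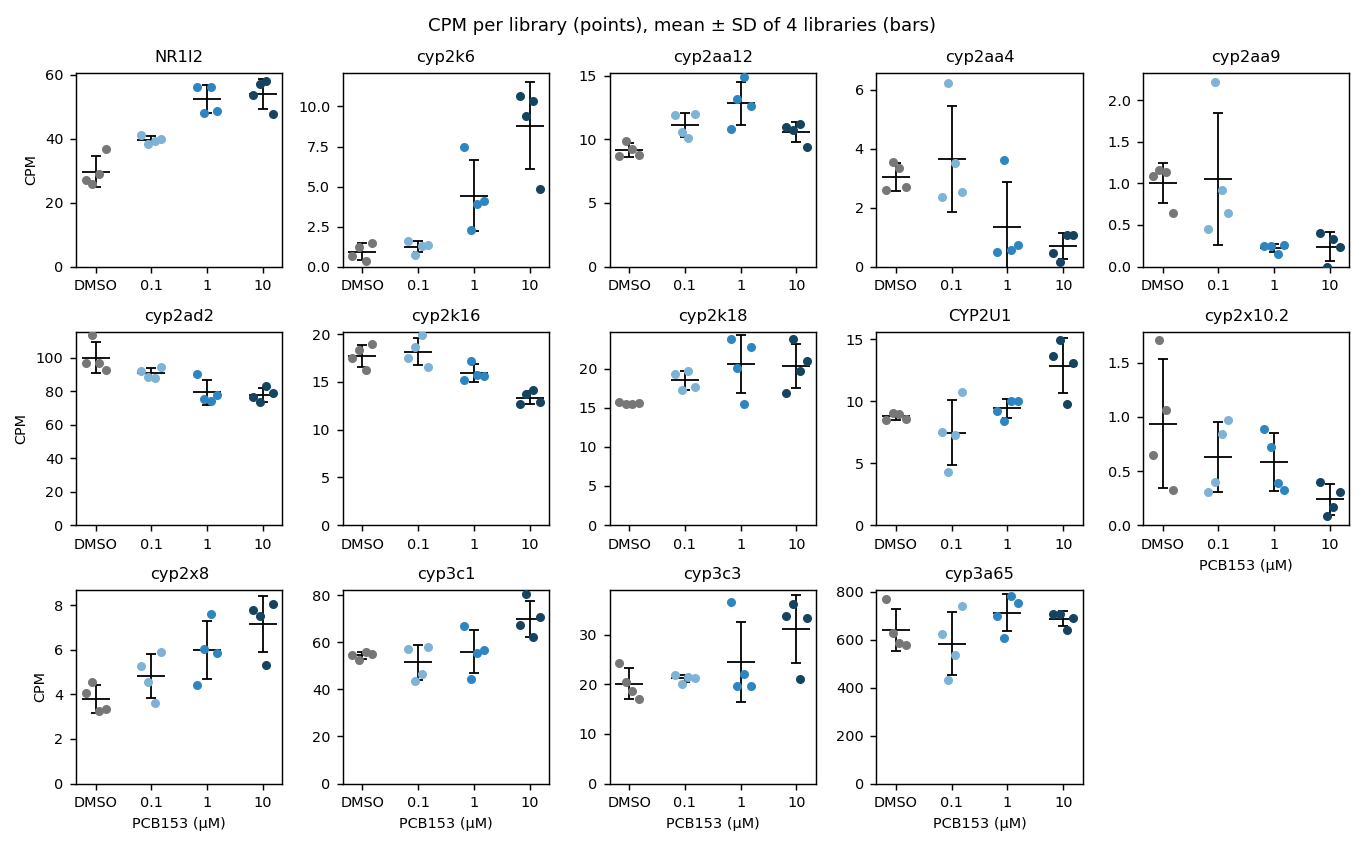
CPM (vertical axis) of the 13 members called against DMSO at some dose, and of cyp3a65, by PCB153 concentration in µM (horizontal axis). Points are the 4 libraries of a group and bars the mean ± SD, which the axis cuts at 0; NR1I2 is above all controls at every dose and cyp2k6 at 1 and 10 µM, while cyp3a65 overlaps in all 4 groups.

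In the fish subfamily cyp2aa, 9 genes were tested, of which 1 rose and 1 fell at 1 µM and 2 fell at 10 µM. This is 22.2% at each of these doses, where 12.4% and 18.3% of all genes were called. The share at 10 µM is near that of all genes and is not read as a result about the subfamily. The gene that rose, cyp2aa12 (ENSDARG00000102805), was at 8.68, 9.91, 9.20 and 8.78 CPM in DMSO and at 11.9, 10.6, 10.1 and 12.0 CPM at 0.1 µM. It was at 10.8, 13.1, 14.9 and 12.6 CPM at 1 µM and at 11.0, 10.8, 11.2 and 9.43 CPM at 10 µM. Libraries at 0.1 and 1 µM were all above the controls, and those at 10 µM overlapped with them. The rise at 1 µM was 0.50 ± 0.10 (edgeR adjusted p = 0.00191) and held in every alternative. The differences at 0.1 µM (0.29 ± 0.10, 0.128), at 10 µM (0.21 ± 0.10, 0.16) and from 1 to 10 µM (-0.29 ± 0.10, 0.0891) were not called.

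The 2 that fell, cyp2aa4 and cyp2aa9, are among the least counted members. The low-count filter was passed by cyp2aa9 only through DMSO and 0.1 µM libraries, where it was high, with none above the threshold of 0.735 CPM at 1 or 10 µM, and by cyp2aa4 with 8 of its 11 libraries above that threshold in these groups. The gene cyp2aa4 (ENSDARG00000098803) had 36, 52, 50 and 42 counts in DMSO and 7, 2, 13 and 14 at 10 µM, or 2.61, 3.55, 3.33 and 2.69 CPM and 0.469, 0.171, 1.06 and 1.07 CPM. At 1 µM it was at 0.507, 3.63, 0.548 and 0.717 CPM, so replicate 2 was at the control level and the other 3 were low. At 10 µM no library overlapped with DMSO. The log2 fold change there was -2.12 ± 0.62 (edgeR adjusted p = 0.0293). The call ended without any 1 of DMSO replicates 2 and 3 and 10 µM replicates 1 and 2, with adjusted p up to 0.0866. Against 0.1 µM it was -2.39 ± 0.60 (0.013), and this ended with the covariate (0.339) and without the 3 libraries that stood apart (0.128).

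The gene cyp2aa9 (ENSDARG00000098890) had 15, 17, 17 and 10 counts in DMSO and 6, 33, 12 and 10 at 0.1 µM. It had 2, 3, 2 and 4 counts at 1 µM and 6, 0, 4 and 3 at 10 µM. Every library at 1 and 10 µM was below every DMSO library after scaling to depth, and a count of 0 allows up to 3. The log2 fold change was -2.09 ± 0.56 at 1 µM (edgeR adjusted p = 0.0163) and -1.97 ± 0.54 at 10 µM (0.0136). The call at 10 µM held in the 22 alternatives that tested the gene, with adjusted p up to 0.0442; in the fit of DMSO and 10 µM alone it did not pass the filter. That at 1 µM ended without 1 µM replicate 3 (0.0522) and with the covariate (0.249). Between 10 and 0.1 µM the difference was -2.06 ± 0.53 (0.00865), and it ended without 0.1 µM replicate 2 (0.0597), with the covariate (0.0956) and without the 3 libraries that stood apart (0.233).

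The last call in the subfamily, cyp2aa8, was lower at 10 than at 0.1 µM (-0.81 ± 0.29, edgeR adjusted p = 0.0469), at 1.03 to 1.76 CPM against 1.29 to 3.95 CPM. Without the 3 libraries that stood apart the difference was -0.39 (0.479), and with the covariate -1.22 (0.147), with no call in either. The call also ended with DESeq2 (0.0554), the replicate block (0.0603) and a fit of the 2 groups alone (0.0823), and without any 1 of 11 libraries, namely DMSO replicates 1 and 4, 0.1 µM replicates 2, 3 and 4, 1 µM replicates 1, 2 and 4 and 10 µM replicates 1, 2 and 3, with adjusted p up to 0.254. The other 5 genes, among them cyp2aa1 with the most reads of the subfamily, were not called in any of the 6 comparisons.

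Subfamilies cyp2ad, cyp2j, cyp2n, cyp2p and cyp2v are the fish genes closest to mammalian CYP2J, whose enzymes oxidise fatty acids. Of their 11 tested genes 1 was called against DMSO at any dose, where 24.4% of all genes were. This gene was cyp2ad2 (ENSDARG00000021172). It was at 97.0, 113.5, 97.1 and 93.0 CPM in DMSO and at 92.0, 88.5, 88.0 and 94.7 CPM at 0.1 µM. It was at 90.1, 75.4, 74.1 and 77.8 CPM at 1 µM and at 76.3, 73.5, 83.1 and 78.9 CPM at 10 µM. The libraries at 1 and 10 µM were all below the controls, those at 1 µM by the least in replicate 1. It differed from DMSO by -0.34 ± 0.07 at 1 µM (edgeR adjusted p = 0.0017; 0.0792 with the covariate) and -0.36 ± 0.07 at 10 µM (0.000643), the latter held in every alternative. It was also lower at 10 than at 0.1 µM (-0.22 ± 0.07, 0.0226), which ended without 10 µM replicate 1 or 2 (up to 0.0878) and with the covariate (0.188). Its relatives cyp2ad3 and cyp2n13 were not called: at 10 µM they differed from DMSO by 0.16 (95% interval -0.0072 to 0.33) and 0.20 (-0.15 to 0.55).

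The gene cyp2p9 (ENSDARG00000022631) separated the highest dose from the others. It was at 23.4, 13.8, 20.1 and 23.3 CPM in DMSO and at 27.0, 27.3, 21.8 and 17.8 CPM at 0.1 µM. It was at 26.6, 25.9, 24.7 and 20.3 CPM at 1 µM and at 13.4, 13.8, 10.5 and 17.6 CPM at 10 µM. Libraries at 10 µM were below all of those at 0.1 and 1 µM and overlapped with DMSO through DMSO replicate 2. The difference was -0.81 ± 0.19 against 1 µM (edgeR adjusted p = 0.0264), -0.76 ± 0.19 against 0.1 µM (0.0121) and -0.54 ± 0.19 against DMSO (0.0664). The call against 1 µM ended with the covariate (0.545), without the 3 libraries that stood apart (0.073) and without any 1 of 1 µM replicates 1, 2 and 3 and 10 µM replicates 1, 2 and 3 (up to 0.0814). That against 0.1 µM ended with the covariate (0.312) and without the 3 libraries that stood apart (0.131). No other cyp2p, cyp2j, cyp2n or cyp2v gene was called in any comparison.

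In the fish subfamily cyp2x, cyp2x8 (ENSDARG00000043997) rose at 1 and 10 µM. It was at 4.05, 4.58, 3.27 and 3.33 CPM in DMSO and at 5.29, 4.56, 3.60 and 5.88 CPM at 0.1 µM. It was at 4.44, 6.04, 7.59 and 5.87 CPM at 1 µM and at 7.77, 7.52, 5.30 and 8.05 CPM at 10 µM. The 10 µM libraries were all above the controls, and 1 µM replicate 1 fell within the control range. The rise was 0.68 ± 0.18 at 1 µM (edgeR adjusted p = 0.0145) and 0.92 ± 0.17 at 10 µM (0.00077), the latter held in every alternative. The call at 1 µM ended without DMSO replicate 3 or 1 µM replicate 3 (up to 0.0672), and with the covariate the rise was 1.08 (0.00405). Against 0.1 µM the rise at 10 µM was 0.56 ± 0.17 (0.02), and it ended with the covariate (0.886), without the 3 libraries that stood apart (0.21) and without any 1 of 0.1 µM replicates 2 and 3 and 10 µM replicates 1, 2 and 4 (up to 0.0752).

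No other cyp2x gene was called higher against DMSO. The gene cyp2x7 was 0.94 log2 units lower at 10 than at 0.1 µM (-0.94 ± 0.23, edgeR adjusted p = 0.00636; 0.443 with the covariate), at 1.37 to 3.34 CPM against 3.52 to 5.37 CPM, and was not called against DMSO (-0.55, 0.117). The gene cyp2x10.2 had 9, 25, 16 and 5 counts in DMSO and 6, 1, 2 and 4 at 10 µM, and the groups overlapped. Its log2 fold change was -1.87 ± 0.55 (adjusted p = 0.021). The call ended without any 1 of DMSO replicates 2 and 3 and 10 µM replicates 2 and 3 (up to 0.101), and the gene passed the low-count filter with no library at 10 µM above its threshold of 0.735 CPM and did not pass it in the fit of the 2 groups alone. The gene cyp2x9 was not called.

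The remaining subfamilies hold 1 gene each. CYP2U1 (ENSDARG00000026548), in humans a fatty acid hydroxylase, was at 8.47, 9.09, 9.001 and 8.59 CPM in DMSO and at 7.49, 4.29, 7.27 and 10.7 CPM at 0.1 µM. It was at 9.25, 8.38, 10.0 and 10.0 CPM at 1 µM and at 13.7, 14.96, 9.78 and 13.1 CPM at 10 µM. All 10 µM libraries were above DMSO, and 10 µM replicate 3 lay below 0.1 µM replicate 4. The rise at 10 µM was 0.55 ± 0.18 over DMSO (edgeR adjusted p = 0.0384) and 0.79 ± 0.18 over 0.1 µM (0.00561). The former ended with the replicate block (0.05001), with the covariate (0.0701) and without any 1 of 8 libraries, namely each DMSO library, 0.1 µM replicate 3 and 10 µM replicates 1, 2 and 4 (up to 0.117). The latter ended with the covariate (0.295) and in a fit of its 8 libraries alone (0.0591), and was 0.49 (0.0461) without the 3 libraries that stood apart.

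The gene cyp2y3 was lower at 10 than at 0.1 µM (-0.20 ± 0.07, edgeR adjusted p = 0.0461), at 97.4 to 109.3 CPM against 102.8 to 130.1 CPM. Without the 3 libraries that stood apart the difference was -0.13 (0.346), and the covariate also ended the call (0.363). So did DESeq2 (0.0513), no filter (0.0554), the replicate block (0.0546), a fit of the 2 groups alone (0.0718) and leaving out any 1 of 9 libraries, namely DMSO replicates 2, 3 and 4, 0.1 µM replicates 1, 2 and 3 and 10 µM replicates 1, 2 and 3 (up to 0.146). The genes cyp2ae1 and cyp39a1, the latter an oxysterol hydroxylase of bile acid synthesis in humans, were not called. At 10 µM cyp39a1 differed from DMSO by -0.79 (95% interval -1.54 to -0.05, edgeR adjusted p = 0.129).

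Set directly against each other, the doses differed in few members for each step in dose and in more across both steps. From 0.1 to 1 µM 1 member rose, NR1I2, or 2.38% of those tested where 0.973% of all genes were called (0.538% up, 0.435% down). From 1 to 10 µM 1 fell, cyp2p9, where 6.15% of all genes were called (3.11% up, 3.05% down). With reads outside genes as a covariate no member was called there, and all genes called went from 1315 to 53. From 0.1 to 10 µM 5 rose and 10 fell, or 35.7% where 21.4% of all genes were called (10.8% up, 10.6% down), a difference that was not tested. The falls include cyp2aa9, with no 10 µM library above the low-count filter's threshold of 0.735 CPM. With reads outside genes as a covariate 2 of these 15 calls were left, both upwards, NR1I2 and cyp2k6. Without the 3 libraries that stood apart the count was 8. Of all genes 275 were called with the covariate and 1965 without the 3 libraries. Markers of pancreas, muscle and liver were also called in this comparison, with values given under the tissue markers. Of those that fell, cyp2k19, cyp2x7, cyp3c4, cyp2y3, cyp2p9 and cyp2aa8 were not called against DMSO at any dose. Over all 6 comparisons 19 of the 42 members were called at least once, where 33.6% of all genes were.

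**Figure D3:**
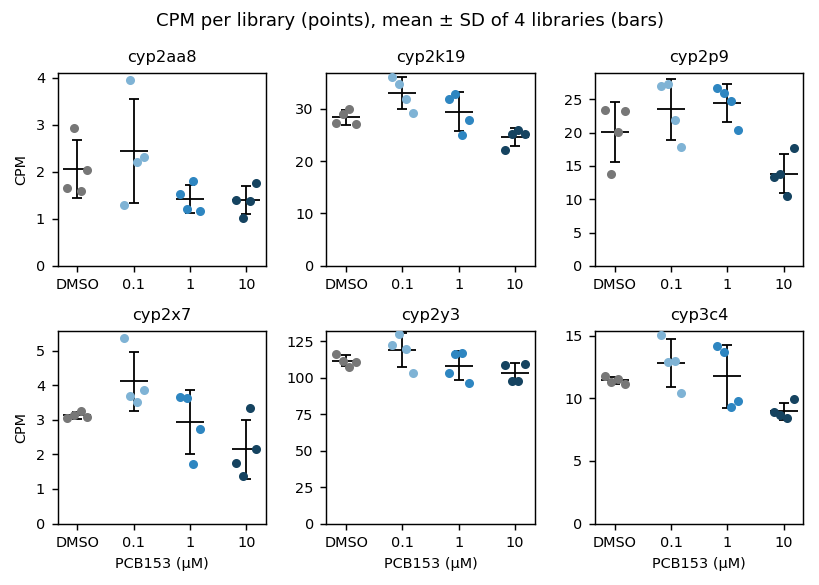
CPM (vertical axis) of the 6 members called between doses and not against DMSO, by PCB153 concentration in µM (horizontal axis). Points are the 4 libraries of a group and bars the mean ± SD; the 10 µM mean is below the 0.1 µM mean in each, with the DMSO mean between them.

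Many members lie next to each other in the genome. In the gene order of RefSeq's assembly GRCz12tu, which is not the build of the counts, 44 of the 46 members matched and formed 5 arrays of neighbouring members, taking at most 7 protein-coding genes between members as 1 array. Changes at 10 µM differed within the arrays. In the array of 8 cyp2k genes, cyp2k6 at one end rose by 3.23 log2 units, while its neighbour cyp2k8 differed by -0.28 (edgeR adjusted p = 0.078) and the next gene, cyp2k16, by -0.41. In the array of 10 genes with the cyp2aa genes and cyp2ae1, the 2 that fell, cyp2aa4 and cyp2aa9, flank cyp2aa8, at -0.55 ± 0.29 with no call. In the array of 11 genes from cyp2n13 to cyp2j20, cyp2ad2 was called alone. Of the 4 neighbouring cyp3c genes, cyp3c3 and cyp3c1 rose and cyp3c4 differed by -0.35.

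**Figure D4:**
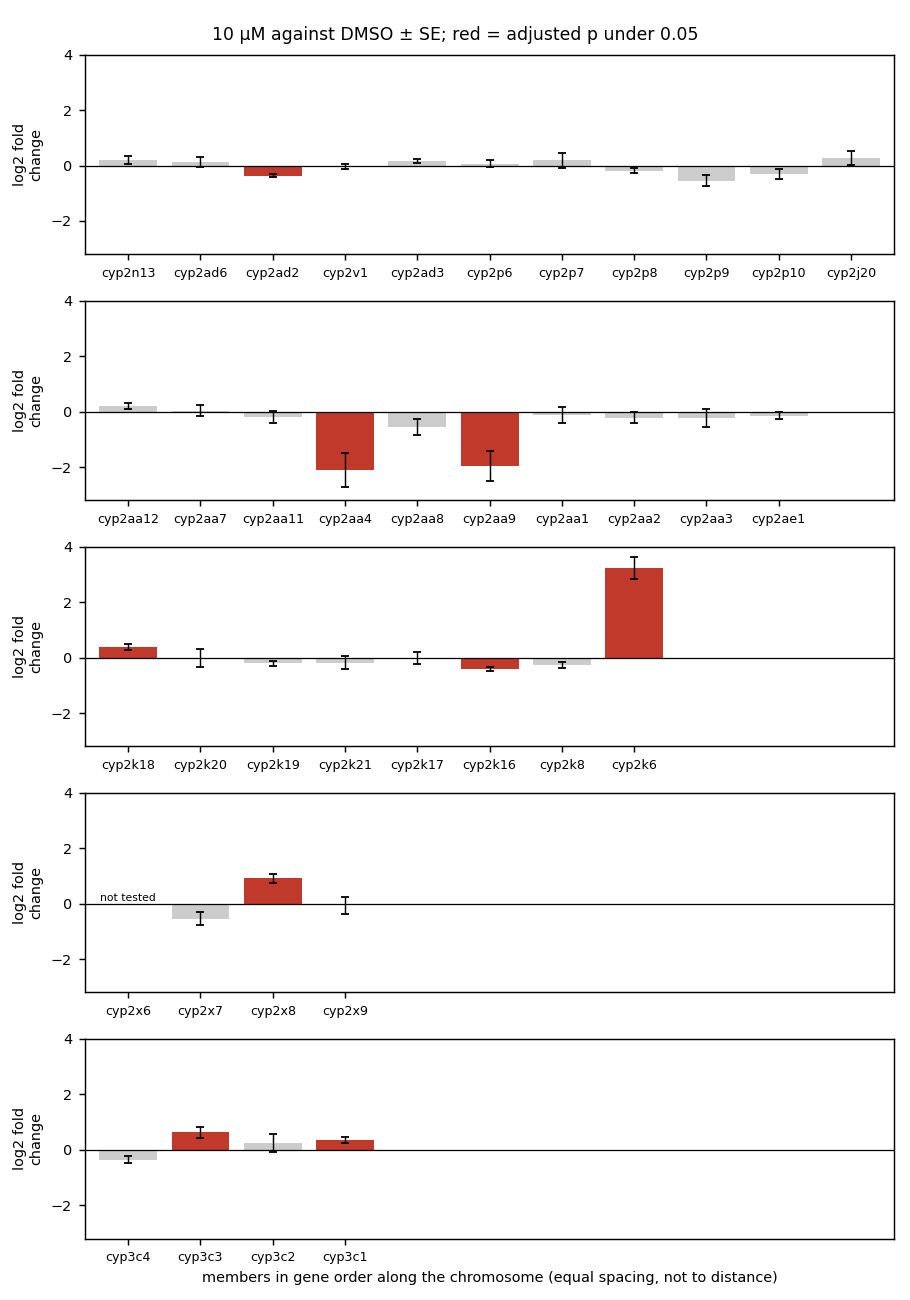
Log2 fold change at 10 µM against DMSO ± SE (vertical axis) of members in 5 arrays, in RefSeq GRCz12tu gene order at equal spacing (horizontal axis). Red bars passed an adjusted p of 0.05 and grey bars did not; cyp2k6 at 3.23 stands at the end of an array whose other 7 genes lie between -0.41 and 0.38.

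P450 enzymes need electrons and haem. Of 11 genes for this supply 2 rose at every dose against DMSO, and none, 1 and 2 fell at 0.1, 1 and 10 µM. The shares called were 18.2%, 27.3% and 36.4%, where 3.43%, 12.4% and 18.3% of all genes were called, and the differences were not tested. Those that rose are both annotated as POR, the reductase that feeds electrons to P450 enzymes of the endoplasmic reticulum. The first (ENSDARG00000059035) was at 107.5, 102.7, 102.5 and 101.2 CPM in DMSO and at 143.2, 149.4, 144.2 and 129.8 CPM at 0.1 µM. It was at 170.7, 154.4, 194.7 and 171.8 CPM at 1 µM and at 183.9, 189.9, 173.5 and 180.2 CPM at 10 µM. Controls were close together and each treated library was above them, with 0.1 µM below 1 and 10 µM. The log2 fold change was 0.45 ± 0.06 (edgeR adjusted p = 9.71e-05), 0.74 ± 0.06 (3.86e-08) and 0.81 ± 0.06 (5.88e-09) at the rising doses. The second (ENSDARG00000055092) rose by 0.21 ± 0.06 (0.0359), 0.29 ± 0.06 (0.00136) and 0.25 ± 0.06 (0.00288). CYB5A, the cytochrome b5 partner of some P450 enzymes, was 0.51 log2 units lower at 10 than at 0.1 µM (-0.51 ± 0.10, edgeR adjusted p = 0.00247). CYB5R2, a reductase of that cytochrome, was also lower (-0.62 ± 0.16, 0.00819), and neither was called against DMSO. With the covariate both of these calls ended (0.118 and 0.276), that of CYB5R2 also without the 3 libraries that stood apart (0.096). The calls of the first POR gene against DMSO held in every alternative, as did those of the second at 1 and 10 µM. That of the second at 0.1 µM ended with the covariate (0.204), in a fit of the 8 libraries alone, without the 3 libraries that stood apart, and without any 1 DMSO library or 0.1 µM replicate 3 (up to 0.0954).

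Among 17 transporters of foreign compounds and organic anions, 2 rose at 0.1 µM, 4 rose and 1 fell at 1 µM, and 4 rose and 2 fell at 10 µM. The shares called were 11.8%, 29.4% and 35.3%, beside 3.43%, 12.4% and 18.3% of all genes. ABCC4, an exporter of organic anions, rose by 0.34 ± 0.07 (edgeR adjusted p = 0.00423), 0.43 ± 0.07 (0.000125) and 0.34 ± 0.07 (0.001) at the rising doses. SLCO2A1, in mammals a prostaglandin carrier, rose by 0.41 ± 0.07 (0.00191), 0.59 ± 0.07 (1.12e-05) and 0.55 ± 0.07 (1.77e-05). ABCC1, another exporter, rose by 0.22 ± 0.05 at 1 µM (0.00878) and 0.30 ± 0.05 at 10 µM (0.000318). The calls of ABCC4 and SLCO2A1 against DMSO held in every alternative, as did ABCC1 at 10 µM, while ABCC1 at 1 µM was lost with the covariate (0.163). The half-transporter abcg2b was called against DMSO at the highest dose and not at the others, and went from 9.91 to 12.4 CPM in DMSO to 7.90, 2.14, 4.57 and 3.30 CPM at 10 µM. Its difference there was -1.30 ± 0.28 against DMSO (0.0055) and -1.64 ± 0.27 against 0.1 µM (0.00109; 0.0751 with the covariate). Over the 3 lists together 4 genes rose and 2 fell at 0.1 µM, 11 rose and 2 fell at 1 µM, and 10 rose and 4 fell at 10 µM, of 49 tested. These are 12.2%, 26.5% and 28.6%, where 3.43%, 12.4% and 18.3% of all genes were called, and the differences were not tested. With the covariate the 3 doses had 3, 8 and 13 calls, beside 207, 1076 and 3428 of all genes. Without the 3 libraries that stood apart they had 3, 14 and 15, beside 642, 2571 and 4789 of all genes. Leaving out single libraries gave 3 to 7 calls at 0.1 µM (3 without DMSO replicate 1, 2 or 3 or 0.1 µM replicate 3), 7 to 14 at 1 µM (7 without 1 µM replicate 4 and 8 without DMSO replicate 2) and 9 to 16 at 10 µM (9 without DMSO replicate 2 or 10 µM replicate 2).

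**Figure D5:**
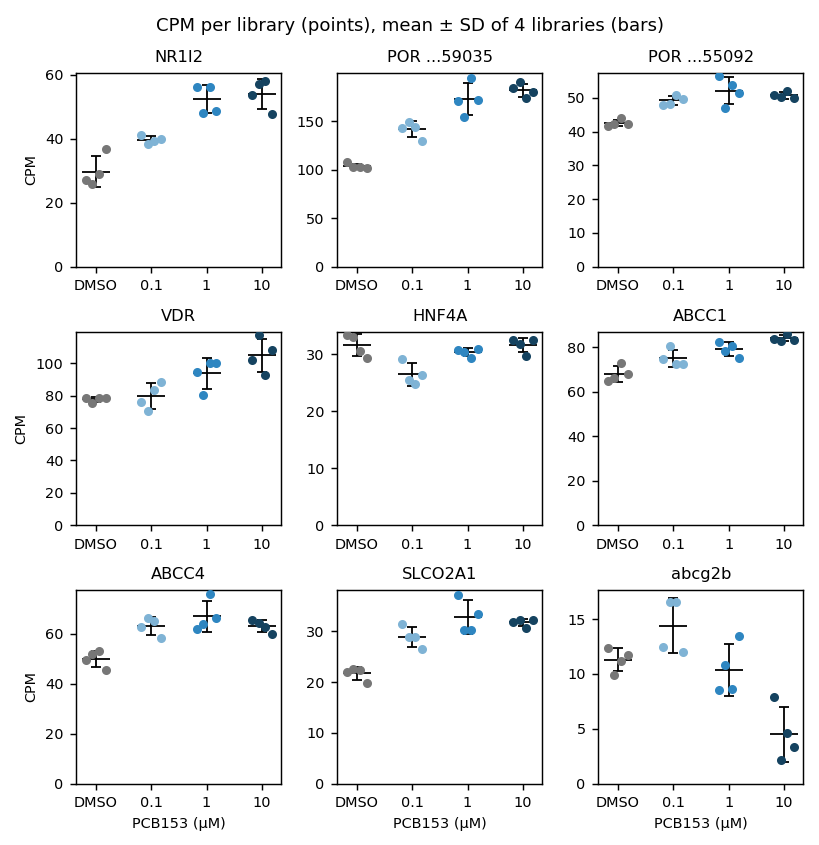
CPM (vertical axis) of NR1I2 and of 8 genes from the lists of partners, electron supply and transporters, by PCB153 concentration in µM (horizontal axis); the 2 POR genes are told apart by the end of their identifiers. Points are the 4 libraries of a group and bars the mean ± SD; POR ENSDARG00000059035, ABCC4 and SLCO2A1 are above all controls at each dose, and abcg2b is below them at 10 µM.

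Markers of liver and intestine, the tissues best known for these enzymes, were called in part at 1 and 10 µM. Of 15 liver markers tested none was called at 0.1 µM, 1 rose and 6 fell at 1 µM, and 5 fell at 10 µM, which is 46.7% and 33.3% at these 2 doses where 12.4% and 18.3% of all genes were called. Their median log2 fold change was -0.27 at 10 µM, where 13 were negative and 2 positive. Their summed level was 9507 to 11642 CPM in DMSO, 10447 to 11619 at 0.1 µM, 10270 to 11782 at 1 µM and 8217 to 10877 at 10 µM, so the sums overlapped. The gene apobb.1 weighs most in these sums, with 1451150 counts over all libraries beside 279236 for the next marker, apoa2. The hepatocyte gene fabp10a was at 356.2 ± 34.1 CPM in DMSO and 284.0 ± 17.7 CPM at 10 µM (SD, n = 4; log2 -0.33, edgeR adjusted p = 0.00507). Of 12 intestine markers 1 rose at 1 µM, 3 rose at 10 µM and none fell, or 8.33% and 25%, and their sum was 1565 to 1918 CPM in DMSO and 1959 to 2032 CPM at 10 µM, without overlap. Exocrine pancreas markers summed to 3841 to 8036 CPM in DMSO and 2991 to 5117 at 0.1 µM, and muscle markers to 43290 to 45711 and 38154 to 43846, with no gene of either list called there. The log2 fold changes at 0.1 µM were negative for all 11 pancreas markers (median -0.62) and all 10 muscle markers (median -0.16). From 0.1 to 10 µM, where 21.4% of all genes were called, 6 of 11 exocrine pancreas markers rose (median log2 0.89), 4 of 10 muscle markers rose (0.17), 5 of 15 liver markers fell (-0.23) and 2 of 12 intestine markers rose. At 10 µM the pancreas sums were 6670 to 8099 CPM and the muscle sums 45638 to 47233 CPM, without overlap with 0.1 µM. Of 9 kidney tubule markers 1 rose at 1 and at 10 µM, or 11.1%, with sums of 687 to 716 CPM in DMSO and 678 to 736 at 10 µM. The marker calls were not checked in the alternative runs, so whether they hold with the covariate or without the 3 libraries that stood apart is not known. The part of these tissue markers in the changes of the members was not tested.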

How the data were processed

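Whole-number read counts per Ensembl gene, with no normalization, were deposited by the authors for 16 libraries, 4 in each group, with 5 summary lines per library that name no gene and stayed out of library sizes and tests. Per the submitters' processing notes, Trimmomatic, HTSeq, edgeR and the build GRCz10 were used, without versions; which aligner and annotation were used is not given in the sources used here. The deposited counts were made in reverse-strand union mode, per the file headers' naming. From these counts, edgeR 4.0.16 (R 4.3.3) was run with TMM scaling, filterByExpr by group (21372 genes kept) and robust quasi-likelihood F-tests of contrasts between groups fitted over all libraries together, with Benjamini-Hochberg adjustment over all genes tested and a threshold of 0.05. SE is the log2 fold change over the square root of F, and CPM uses TMM-scaled sizes (1e+06 counts). The code was also run on counts simulated from its own fitted means and dispersions, which cannot test the calls made here. Members and gene lists were chosen with earlier results of these data known, so counts over them are descriptions. Of 143 list names 42 matched no symbol. Named were NR1I2, every member called in any of 6 comparisons, the 15 members with most CPM and the leading member of each subfamily, and from each pathway list up to 4 called genes by smallest p, of which 1 is not reported here. Depth was 8069225 to 15531744 counts. Alternatives were DESeq2 1.42.0, its size factors, no filter, 8 libraries alone, a replicate block, reads outside genes as a covariate, each library left out and, chosen after seeing the data, 3 libraries left out.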

Additional observations from a re-analysis of the deposited data

Results flagged for a closer look

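In 5 of 140 groups of 4 libraries, over 31 members and 4 library measures, the highest or lowest library stood far from the other 3; chance alone gives about 1 in 20. The member cyp3c3 was at 36.5 CPM in 1 µM replicate 1, the library of lowest depth, with the others between 19.7 and 22.1 CPM. The member cyp2aa4 was at 3.63 CPM in 1 µM replicate 2, with the others between 0.507 and 0.717 CPM. The member cyp2aa9 was at 0.641 CPM in DMSO replicate 4, with the others between 1.09 and 1.16 CPM. The member cyp2v1 was at 22.4 CPM in 10 µM replicate 3, with the others between 26.1 and 26.3 CPM. The member cyp2j20 was at 1.69 CPM in 10 µM replicate 4, with the others between 2.53 and 2.61 CPM. The 5 values fell in 5 different libraries.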

How the results depend on the processing

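Of the 37 calls of a member in a comparison, 10 held in every alternative that tested the gene: NR1I2 at 1 and 10 µM against DMSO and at 10 against 0.1 µM, cyp2k6 at 10 µM against DMSO and against 0.1 µM, cyp2aa12 at 1 µM, and cyp2aa9, cyp2ad2, cyp2k16 and cyp2x8 at 10 µM; cyp2aa9, which passed the filter only through DMSO and 0.1 µM libraries, was not tested in the 8-library fit. Leaving out single libraries ended 16 calls, the covariate 22, leaving out the 3 libraries that stood apart 11, the replicate block 4, fits of 8 libraries 4, DESeq2 2, no filter 1 and size factors 0. No alternative took the share of reads not uniquely aligned as a covariate. With the covariate the counts of members called were 0 at 0.1 µM (4 at an unadjusted p under 0.05), 3 at 1 µM, 0 from 1 to 10 µM (1 unadjusted) and 2 from 0.1 to 10 µM. Of all genes 207, 1076, 53 and 275 were called there, beside 734, 2650, 1315 and 4567 in the main fit. Without the 3 libraries the member counts were 0 at 0.1 µM (5 unadjusted), 0 from 0.1 to 1 µM (5 unadjusted), 6 from 1 to 10 µM and 8 from 0.1 to 10 µM. Of all genes 642, 21, 1768 and 1965 were called there, and the main fit had 208 from 0.1 to 1 µM. Fits of 8 libraries gave 0 members from 0.1 to 1 µM (9 unadjusted) and 3 from 1 to 10 µM, and DESeq2 gave 3 and 2, with 1 at 0.1 µM. Of all genes the fits of 8 libraries called 7 and 1304, and DESeq2 537 and 1358, with 804 at 0.1 µM. The cause of these shifts was not tested. Leaving out single libraries gave 1 in each fit at 0.1 µM, 5 to 8 at 1 µM, 6 to 13 at 10 µM, 0 to 3 from 0.1 to 1 µM, 0 to 4 from 1 to 10 µM and 11 to 18 from 0.1 to 10 µM. In the same order, 411 to 1117, 1809 to 3048, 2580 to 4394, 32 to 630, 528 to 1637 and 2961 to 5114 of all genes were called. The lowest member count at 10 µM, 6, came without 10 µM replicate 2, and 7 without DMSO replicate 3. The cyp3a65 difference at 0.1 µM reversed to 0.11 with the covariate and 0.093 without the 3 libraries. Size factors moved the median of all genes by less than 0.01 log2 units.

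The mean correlation of deviations was -0.009 over 24 pairs of libraries with the same replicate number (-0.18 to 0.23). It was 0.003 over 72 other pairs (-0.24 to 0.15), and 2 of 16 libraries correlated best with their own number. The highest value, 0.23, was that of 0.1 µM replicate 1 with 1 µM replicate 1. Whether some libraries of the same number share a clutch or batch cannot be told from these correlations. With the replicate block, members called were 1 at 0.1 µM, 7 at 1 µM, 11 at 10 µM, 0 from 0.1 to 1 µM (12 unadjusted), 1 from 1 to 10 µM and 14 from 0.1 to 10 µM. Of all genes 689, 2613, 3819, 222, 1227 and 4373 were called, in the same order. Depth limits the members under about 1 CPM, where single counts decide a value.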

Other observations

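The 4 members below the low-count filter were near the limit of detection in every group. The most any of them had in a library was 7 counts, in cyp2k31 (DMSO replicate 1 and 0.1 µM replicate 2) and cyp2x6 (0.1 µM replicate 1), and cyp2x10.1 and cyp2k22 were at 0 in several libraries, where a count of 0 allows up to 3. Members not called could still vary widely among replicates. The gene cyp2aa1 was at 7.10, 11.4, 20.4 and 9.73 CPM at 10 µM, and cyp2x9 at 14.0, 28.1, 23.2 and 11.8 CPM at 0.1 µM. The gene cyp2p7 was at 11.4, 12.1, 7.28 and 8.34 CPM at 1 µM and at 13.4, 16.0, 20.3 and 21.1 CPM at 10 µM, without overlap between these doses and without a call (0.87 ± 0.29, edgeR adjusted p = 0.0978). The library 0.1 µM replicate 2 held the highest value of its group for 13 and the lowest for 16 of the 41 P450 members tested. Other libraries came near this, with 14 and 13 in DMSO replicate 2 and 13 and 14 in 10 µM replicate 3.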
